A study of Mus musculus with 8 samples.

Results

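The miR-34 and miR-449 family is a group of microRNAs (miRNAs, short RNAs that guide Argonaute proteins to messenger RNAs) related by their seed, the stretch near the 5′ end that pairs with a target. The members were the rows of the miRNA class named mmu-miR-34a-5p, mmu-miR-34b-5p, mmu-miR-34b-3p, mmu-miR-34c-5p, mmu-miR-34c-3p and mmu-miR-449a-5p, where 5p and 3p are the arms of a hairpin precursor. These 6 rows were chosen by name, among 952 rows of the miRNA class and 1010917 rows in all. Small RNA was sequenced from spermatozoa of C57BL/6J mice, with 4 libraries in a group treated with alcohol and then taken off it (EtOH-Cessation, here EtOH) and 4 libraries in its control (Control-Cessation, here control). Both groups were sampled after cessation, which the series title puts at a month, so the comparison asks whether sperm small RNAs of alcohol-treated mice still differed from those of controls. The titles say mature sperm, whereas the design text speaks of caput epididymis, and the labels used here give neither a dose nor an age. They do not say whether each library was a separate animal, so p-values measure the spread between these libraries. EtOH replicates 1 and 2 carry identifiers of the form PO_M21, EtOH replicates 3 and 4 of the form PO_EM4 and the controls of the form PO_CM2; the labels do not say what the forms mean.

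As background, transcription of miR-34 genes is activated by p53 and its relatives, and the family restrains cell cycle and Notch pathway genes. Mice that lack both miR-34b/c and miR-449 have defects of motile cilia and are infertile. The miR-34b and miR-34c hairpins come from a shared primary transcript, miR-449 lies in an intron of Cdc20b, and miR-34c is known as an abundant miRNA of sperm.

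The sequences are shown because the members differ in seed between arms and resemble each other enough that reads could be shared between rows. Mature sequences were found in RefSeq tables (GRCm38.p6) for 5 of the 6 names, all but mmu-miR-34c-5p, and the capitals mark the seed, bases 2 to 8 from the 5′ end.
mmu-miR-34a-5p: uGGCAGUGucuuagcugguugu
mmu-miR-34b-5p: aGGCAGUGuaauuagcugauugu
mmu-miR-449a-5p: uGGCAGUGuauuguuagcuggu
mmu-miR-34b-3p: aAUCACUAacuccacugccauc
mmu-miR-34c-3p: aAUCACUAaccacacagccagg

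The first 3 sequences share the seed GGCAGUG. Of the 1679 mature mouse names that the RefSeq table holds, 4 (0.238%) carried it, the remaining name being mmu-miR-449c-5p. As that table lacks mmu-miR-34c-5p, the count leaves this member out and does not show which seed it carries. The 3p arms of miR-34b and miR-34c share AUCACUA, which no other name of that table carried (2 of 1679, 0.119%). The 3p arms were identical over their first 10 bases and differed by 5 edits over 22 bases, and mmu-miR-34a-5p and mmu-miR-449a-5p were identical over their first 9 bases and differed by 6 edits. Of the 10 pairs among the printed sequences, mmu-miR-34a-5p and mmu-miR-34b-5p had the fewest edits, 4. Pairs with mmu-miR-34c-5p could not be compared, so a closer pair may exist among the members. How reads that match several rows were counted is not stated in the labels, and counts of rows this alike are uncertain where a read was short.

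In GRCm38.p6, mmu-miR-34a-5p lies at chr4:150068473-150068494 on the plus strand, inside the hairpin gene Mir34a. On the minus strand of chromosome 9, mmu-miR-34b-5p lies at chr9:51103610-51103632, mmu-miR-34b-3p at chr9:51103574-51103595 and mmu-miR-34c-3p at chr9:51103044-51103065. The Mir34b and Mir34c hairpins were 451 bases apart and lay inside the annotated spans of Btg4, an antiproliferative gene of the BTG family, and of Hoatz. The position of mmu-miR-449a-5p is chr13:113037549-113037570 on the plus strand, inside the span of Cdc20b.

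Summed counts ranged from 3116421 to 6805989 in the EtOH libraries and from 4210785 to 4768713 in the controls. The miRNA class took 6.96% to 10.1% of the counts in EtOH libraries and 16.8% to 27.7% in controls, and these ranges did not overlap. The labelled cell type was checked by exon fragments of 10 sperm and spermatid genes, such as the protamines Prm1 and Prm2: all 10 were detected, at a summed 302 to 437 CPM (counts per 1000000 counts, for these sums of the library total and for the members of the total scaled by TMM, an estimate of the factor shared by most features) in EtOH libraries and 493 to 579 CPM in controls. Of 10 genes of epididymal epithelium, 9 were detected; their sum was 706 to 17625 CPM in EtOH libraries and 356 to 489 CPM in controls, with the highest value in EtOH replicate 2 and nearly all counts from Crisp1, Cd52 and Adam7, while Lcn5, Lcn8 and Lcn9 had at most 9 counts in any library. EtOH replicate 2 was also the shallowest library, and values are given without it for the edgeR calls, the share of mmu-miR-34c-5p and the arm ratio of miR-34c. The sperm, epididymal and miRNA values each separated the groups without overlap, and their part in the results on the family was not tested. In bulk samples like these, fewer cells of a type and less RNA per cell cannot be told apart.

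The table lists isolated zeros that touch 2 members. In control replicate 1, mmu-miR-34b-3p had 0 counts, against 3360 to 15183 in the other 7 libraries, where the median of those libraries predicts 7741 counts. In EtOH replicate 4 and control replicate 2, mmu-miR-449a-5p had 0 counts, against 313 to 2101 in the other 6, where 1171 and 865 counts were predicted. Such zeros were found in 51 rows of all classes, of which 28 were miRNA rows. By counting error alone a 0 allows up to 3 counts, far below the counts predicted, so these zeros are not read as levels, and whether they arose in the RNA or in the making of the table was not tested. Tests of these 2 members are given with and without the libraries at 0.

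mmu-miR-34c-5p was the most abundant member in every library and among the most abundant miRNAs. It had 20222, 5590, 32916 and 16971 counts in EtOH replicates 1 to 4 and 22857, 27843, 19528 and 25008 counts in control replicates 1 to 4. Among the 663 mature miRNA rows with a name of this kind it ranked between 4 and 10 in EtOH libraries and between 7 and 11 in controls. The raw counts of the groups overlapped, with EtOH replicate 3 the highest and EtOH replicate 2 the lowest of all 8 libraries.

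Mature miRNAs are of nearly equal length (22 or 23 bases for the sequences printed above), so levels can be set side by side in CPM, apart from differences in how well each sequence is captured, which these data do not measure. In EtOH libraries the order was mmu-miR-34c-5p (1522 to 4480.2 CPM), mmu-miR-34b-3p (915 to 1646 CPM), mmu-miR-34b-5p (201 to 769 CPM), mmu-miR-449a-5p (85.2 to 286 CPM in the 3 libraries with a count), mmu-miR-34c-3p (84.7 to 147 CPM) and mmu-miR-34a-5p (14.4 to 50.6 CPM). In controls it was mmu-miR-34c-5p (4931 to 7661 CPM), mmu-miR-34b-3p (2541 to 4052 CPM in 3 libraries), mmu-miR-34b-5p (668 to 1507 CPM), mmu-miR-34c-3p (296 to 551 CPM), mmu-miR-449a-5p (204 to 332 CPM in 3 libraries) and mmu-miR-34a-5p (38.6 to 204 CPM). In EtOH libraries the ranges of neighbours in this order overlapped for the leading pair, for mmu-miR-34b-5p with mmu-miR-449a-5p and for mmu-miR-449a-5p with mmu-miR-34c-3p. The overlap of the leading pair and that of mmu-miR-449a-5p with mmu-miR-34c-3p rested on EtOH replicate 2 alone, at 1522 CPM of mmu-miR-34c-5p and 85.2 CPM of mmu-miR-449a-5p. In controls they overlapped for mmu-miR-34c-3p with mmu-miR-449a-5p, and the ranges of mmu-miR-449a-5p and mmu-miR-34a-5p were adjacent at 204 CPM. The level of mmu-miR-34c-5p exceeded that of mmu-miR-34b-3p in each of the 7 libraries that had counts of both.

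**Figure D1:**
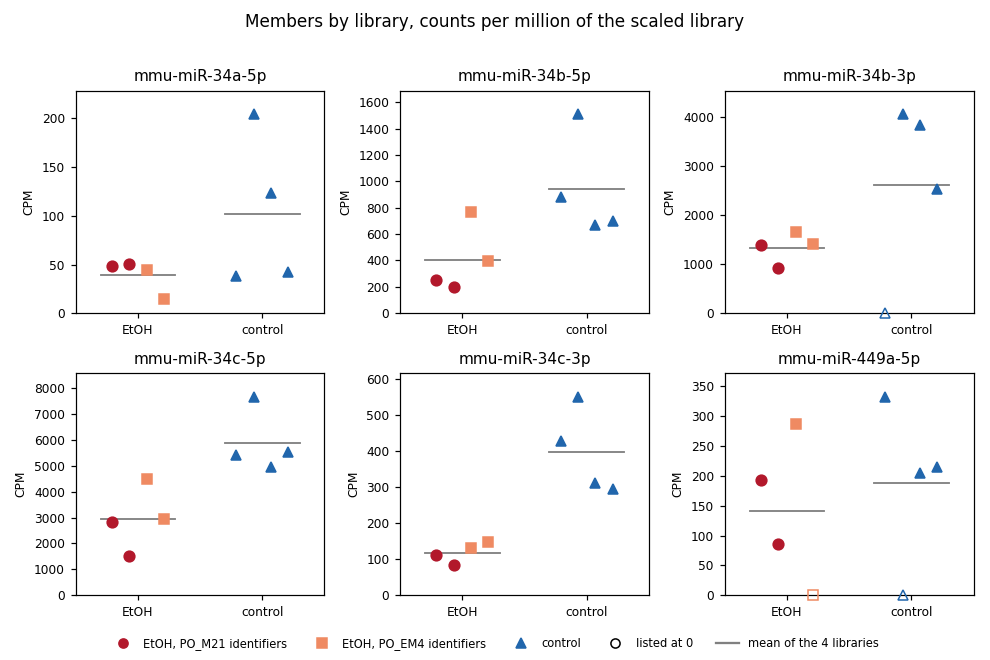
Level in CPM of the scaled library (y axis, from 0, a scale of its own in each panel) of the 6 members in the 4 EtOH libraries (left) and the 4 control libraries (right). Points are libraries, colours and shapes mark identifier forms, open symbols are libraries listed at 0 and lines are means of all 4 libraries. On this scale mmu-miR-34c-5p and mmu-miR-34c-3p show no overlap between groups. As a share of all counts, without TMM scaling, mmu-miR-34c-5p overlapped.

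In CPM, all 6 members averaged lower in EtOH sperm. Of the 196 mature miRNA rows tested, 193 had a log2 fold change, EtOH over control, below 0. The arms of miR-34c stood apart without overlap in CPM: mmu-miR-34c-5p averaged 2945 ± 1210.4 CPM in EtOH libraries and 5882 ± 1213 CPM in controls (SD, n = 4 each), and mmu-miR-34c-3p 119 ± 26.8 CPM in EtOH libraries and 396 ± 119 CPM in controls (SD, n = 4 each). For mmu-miR-34c-5p this held only after TMM scaling. As a share of all counts its groups overlapped (0.316% ± 0.125 in EtOH libraries, 0.54% ± 0.0882 in controls, SD, n = 4 each), whereas those of mmu-miR-34c-3p did not. The counts of mmu-miR-34c-3p, the less abundant arm of its hairpin, were 795, 311, 963 and 847 in EtOH replicates 1 to 4 and 1802, 2001, 1229 and 1340 in control replicates 1 to 4, so its raw counts did not overlap either. mmu-miR-34b-5p had 1810, 739, 5652 and 2296 counts in EtOH replicates 1 to 4 and 3702, 5478, 2646 and 3175 counts in control replicates 1 to 4, and its CPM overlapped between groups through EtOH replicate 3 alone. mmu-miR-34a-5p had 346, 186, 327 and 83 counts in EtOH replicates 1 to 4 and 163, 740, 488 and 190 counts in control replicates 1 to 4, where control replicates 1 and 4 lay among the EtOH libraries in CPM. The counts of mmu-miR-34b-3p were 9900, 3360, 12093 and 8095 in EtOH replicates 1 to 4 and 14729, 15183 and 11516 in control replicates 2 to 4. These 2 members without overlap, and mmu-miR-34b-3p among libraries with a count, are to be read against 111 of 228 miRNA rows tested (48.7%) whose CPM was lower in EtOH without overlap.

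No member passed the threshold of adjusted p 0.05 in the test of all 10234 features (edgeR quasi-likelihood, two-sided, Benjamini-Hochberg), where 14 features (0.137%) were called lower. At an unadjusted p under 0.05, 4 of the 6 members were lower and none higher, beside 152 of 228 miRNA rows tested (66.7%) lower. DESeq2 called 1 member lower, mmu-miR-34c-3p, beside 51.3% of miRNA rows, and limma voom with quality weights called 2 lower, mmu-miR-34c-3p and mmu-miR-34b-5p, beside 32.5% of miRNA rows. By each of these rules the share of members called was near or below the share of miRNA rows called. All 4 libraries of each group entered these fits.

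The fold changes of the members lay around or above the median of the miRNA class. For mmu-miR-34c-3p the log2 fold change, EtOH over control, was -1.74 (SE 0.37, edgeR adjusted p 0.0525), for mmu-miR-34c-5p -1.0 (SE 0.39, adjusted p 0.125) and for mmu-miR-34b-5p -1.21 (SE 0.47, adjusted p 0.125). The tumour suppressor miRNA mmu-miR-34a-5p was at -1.37 (SE 0.58, adjusted p 0.156). For mmu-miR-34b-3p it was -0.96 (SE 1.2, adjusted p 0.68) with all libraries and -1.29 (SE 0.45, adjusted p 0.138) without control replicate 1. For mmu-miR-449a-5p it was -0.41 (SE 1.39, adjusted p 0.897), and -0.41 (SE 0.50, adjusted p 0.721) without EtOH replicate 4 and control replicate 2. The median over all 228 miRNA rows was -1.56, over the 6 members -1.10 and over all features -0.09. Counted from the largest decrease, mmu-miR-34c-3p ranked 82 of 228 miRNA rows and the other 5 members between 144 and 202.

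The calls turned on single libraries. Leaving out EtOH replicate 1, EtOH replicate 4 or any single control called no member. In those fits mmu-miR-34c-3p had an edgeR adjusted p from 0.0589 to 0.135, and at most 7 miRNA rows were called lower. Without EtOH replicate 3, which had the highest counts of both 5p arms of the chromosome 9 pair, mmu-miR-34c-3p (-1.87, edgeR adjusted p 0.0121), mmu-miR-34b-5p (-1.80, adjusted p 0.0169) and mmu-miR-34c-5p (-1.35, adjusted p 0.0375) all passed the threshold, 3 of 6 members beside 139 of 239 miRNA rows (58.2%) called lower in that fit. Without EtOH replicate 2, mmu-miR-34c-3p passed it (-1.47, edgeR adjusted p 0.0293), while mmu-miR-34c-5p was at -0.67 (adjusted p 0.281) and mmu-miR-34b-5p at -0.87 (adjusted p 0.23); 73 of 249 miRNA rows (29.3%) were called lower there. With the PO_M21 libraries alone against all controls, mmu-miR-34b-5p was at -2.20 (edgeR adjusted p 0.0126), mmu-miR-34c-5p at -1.57 (adjusted p 0.0452) and mmu-miR-34c-3p at -2.17 (adjusted p 0.0115), beside 102 of 263 miRNA rows (38.8%) called lower. With the PO_EM4 libraries alone, the same members were at -0.51 (edgeR adjusted p 0.692), -0.51 (adjusted p 0.629) and -1.37 (adjusted p 0.14). The identifier forms shared the controls, and the difference between forms was not tested. mmu-miR-34c-3p also passed the threshold with library size alone (edgeR adjusted p 0.0448), beside 20.6% of miRNA rows called lower, and with all features with isolated zeros left out (adjusted p 0.0457), beside 38%. Over the fits without a single EtOH library or with either identifier form alone, the log2 fold change of mmu-miR-34c-3p ran from -2.17 to -1.37.

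**Figure D2:**
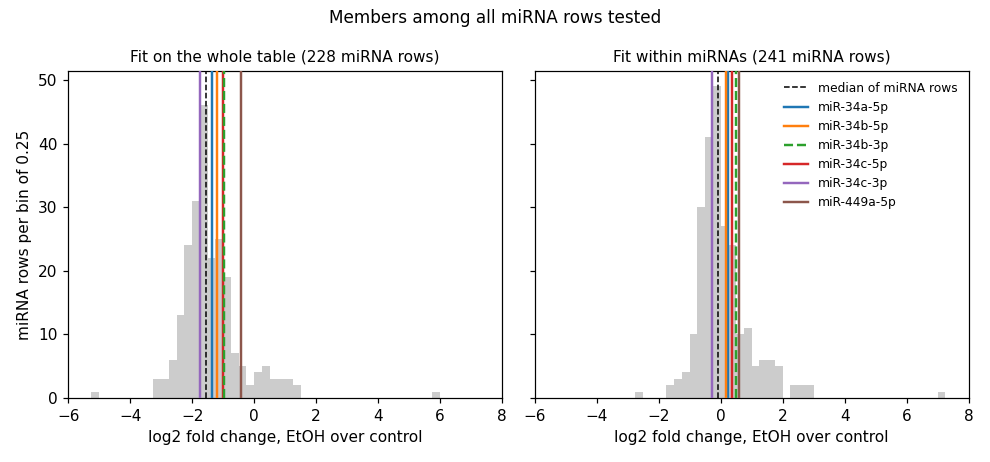
Distribution of log2 fold changes, EtOH over control, of the miRNA rows tested (grey bars, rows per bin) in the fit on the whole table (left, 228 rows) and in the fit within miRNAs (right, 241 rows). Coloured lines are the 6 members and the dashed black line the median of miRNA rows, -1.56 on the left and -0.09 on the right; on the left mmu-miR-34c-3p lies below the median and the other 5 above it.

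Against the other miRNAs, the family was not called changed in either direction. In a fit within the miRNA class, 1 of 241 rows passed the threshold in edgeR (0.415%) and no member did; no member had an unadjusted p under 0.05, beside 27 of 241 rows (11.2%). DESeq2 called 7 of 241 rows (2.9%) and limma voom 1 (0.415%), and neither called a member. The log2 fold changes, with -0.09 as the median row, were 0.36 for mmu-miR-34c-5p (SE 0.24, edgeR adjusted p 0.687), -0.27 for mmu-miR-34c-3p (SE 0.28, adjusted p 0.814), 0.17 for mmu-miR-34b-5p (SE 0.30, adjusted p 0.937) and 0.24 for mmu-miR-34a-5p (SE 0.57, adjusted p 0.97). For mmu-miR-34b-3p the value was 0.48 with control replicate 1 and 0.05 (SE 0.30, edgeR adjusted p 0.981) without it, and for mmu-miR-449a-5p it was 0.59 with and 0.62 (SE 0.35, adjusted p 0.533) without the libraries at 0. With the PO_EM4 libraries alone, mmu-miR-34c-5p was at 0.62 and mmu-miR-34b-5p at 0.63 (edgeR adjusted p 0.63 for both), and with the PO_M21 libraries alone they were at 0.05 (adjusted p 0.98) and -0.45 (adjusted p 0.639).

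Each member's share of all miRNA counts gives the same view library by library, with no scaling between RNA classes. mmu-miR-34c-5p made up 3.14%, 2.58%, 4.77% and 4.27% of miRNA counts in EtOH replicates 1 to 4 and 2.82%, 2.38%, 2.53% and 3.12% in control replicates 1 to 4, or 3.69% ± 1.01 in EtOH libraries and 2.72% ± 0.327 in controls (SD, n = 4 each). EtOH replicates 3 and 4 lay above every control, EtOH replicate 1, at 3.14%, lay just above the highest control, at 3.12%, and EtOH replicate 2 lay among the controls. For the difference of 0.971 percentage points the exact permutation p, two-sided, was 0.114 (70 splits, 0.6 adjusted over the 6 members). Without EtOH replicate 2 the difference was 1.34 percentage points with no overlap, with p 0.0286 by exact permutation, which is the lowest value 35 splits can give (0.171 adjusted over the 6 members). Each share's counting interval was narrow beside these differences between group means. The interval of EtOH replicate 1, 3.10% to 3.18% (95%, Wilson), nevertheless overlapped that of control replicate 4, 3.09% to 3.16%. The lack of overlap without EtOH replicate 2 thus rests on a gap within counting error. These intervals reflect counting error alone, as no molecular tags are mentioned in the labels.

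The shares of mmu-miR-34b-5p in EtOH libraries lay on both sides of the controls. It held 0.281%, 0.341%, 0.818% and 0.577% of miRNA counts in EtOH replicates 1 to 4 and 0.457%, 0.469%, 0.343% and 0.396% in control replicates 1 to 4 (exact permutation p 0.6, adjusted 0.629). The 2 PO_EM4 libraries were above all 4 controls and the 2 PO_M21 libraries below all 4. Of the latter, EtOH replicate 2 (counting interval 0.317% to 0.366%) could not be told apart from control replicate 3 (0.33% to 0.356%). The group means, 0.504% ± 0.245 in EtOH libraries and 0.416% ± 0.0584 in controls (SD, n = 4 each), thus averaged EtOH libraries on both sides of the controls. With 2 libraries per form against 4 controls the exact permutation p cannot go below 0.0667, and the values were 0.133 for PO_M21 and 0.0667 for PO_EM4.

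The 3p arms, mmu-miR-34a-5p and mmu-miR-449a-5p also overlapped between groups in share. mmu-miR-34b-3p held 1.54%, 1.55%, 1.75% and 2.03% in EtOH replicates 1 to 4 and 1.26%, 1.97% and 1.44% in control replicates 2 to 4, which is 1.72% ± 0.233 (SD, n = 4) in EtOH libraries and 1.56% ± 0.368 (SD, n = 3) in controls with a count (exact permutation p 0.514, 35 splits; 0.229 with control replicate 1). mmu-miR-34c-3p held 0.155% ± 0.0397 in EtOH libraries and 0.18% ± 0.0287 in controls (SD, n = 4 each, exact permutation p 0.343). The share of mmu-miR-34a-5p was 0.0209% to 0.0858% in EtOH libraries and 0.0201% to 0.0634% in controls (exact permutation p 0.629). In libraries with a count, mmu-miR-449a-5p held 0.213%, 0.144% and 0.304% in EtOH replicates 1 to 3 and 0.173%, 0.105% and 0.122% in control replicates 1, 3 and 4 (exact permutation p 0.2, where 3 against 3 cannot go below 0.1). With the libraries at 0 kept, it averaged 0.165% ± 0.128 in EtOH libraries and 0.0999% ± 0.0726 in controls (SD, n = 4 each, exact permutation p 0.4).

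**Figure D3:**
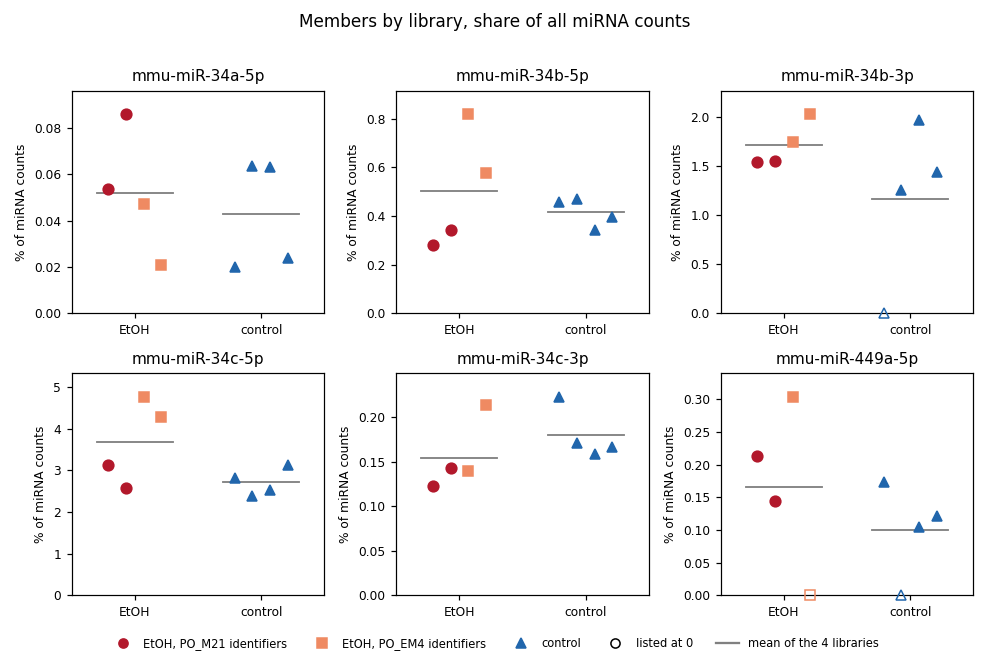
Share of all miRNA counts (percent, y axis, from 0, a scale of its own in each panel) of the 6 members in the 4 EtOH libraries (left) and the 4 control libraries (right). Points are libraries, shapes mark identifier forms, open symbols are libraries listed at 0 and lines are means of all 4 libraries. For mmu-miR-34c-5p all EtOH libraries but EtOH replicate 2 (2.58%) sit above all controls, EtOH replicate 1 by a gap within counting error. For mmu-miR-34b-5p the PO_EM4 libraries (0.577% and 0.818%) sit above and the PO_M21 libraries (0.281% and 0.341%) below all controls, EtOH replicate 2 again by a gap within counting error.

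Summed over the 4 members without isolated zeros, the family held 3.6%, 3.15%, 5.77% and 5.08% of miRNA counts in EtOH replicates 1 to 4 and 3.52%, 3.09%, 3.1% and 3.71% in control replicates 1 to 4. As a share of all counts the same sum was 0.349%, 0.219%, 0.586% and 0.354% in EtOH replicates 1 to 4 and 0.655%, 0.856%, 0.55% and 0.623% in control replicates 1 to 4. As a share of all counts the sum was below every control in 3 of the 4 EtOH libraries and within the control range in EtOH replicate 3, and as a share of miRNA counts it averaged 4.4% ± 1.23 in EtOH libraries and 3.35% ± 0.31 in controls (SD, n = 4 each). Within these 4 members mmu-miR-34c-5p supplied 81.9% to 87.3% in EtOH libraries and 77.2% to 84.2% in controls.

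Ratios between members do not depend on scaling. The ratio of the 5p arm to the 3p arm of miR-34c was 25.4, 18.0, 34.2 and 20.0 in EtOH replicates 1 to 4 and 12.7, 13.9, 15.9 and 18.7 in control replicates 1 to 4, averaging 24.4 ± 7.24 in EtOH libraries and 15.3 ± 2.61 in controls (SD, n = 4 each). The groups overlapped only where EtOH replicate 2, at 18.0, fell below control replicate 4, at 18.7. The log2 ratio was 0.64 higher in EtOH libraries (two-sided exact permutation p 0.0571, 0.343 adjusted over 6 ratios); a single ratio could not reach an adjusted p below 0.171 here. Without EtOH replicate 2 the groups did not overlap (difference 0.78, exact permutation p 0.0286, the smallest possible, 0.171 adjusted).

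In miR-34b the 3p arm was the more abundant and the ratios of the groups overlapped. The ratio of 5p to 3p was 0.183, 0.22, 0.467 and 0.284 in EtOH replicates 1 to 4 and 0.372, 0.174 and 0.276 in control replicates 2 to 4, a log2 difference of 0.05 without control replicate 1 (exact permutation p 0.857, 35 splits). Every EtOH ratio except 0.467 in EtOH replicate 3 lay within the control range. With 0.5 added to each count and control replicate 1 kept, the log2 difference was -3.65 (exact permutation p 0.6), a value set by its 0.

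The other ratios overlapped between groups. The ratio of mmu-miR-34c-5p to mmu-miR-34b-3p was 1.66 to 2.72 in EtOH libraries and 1.29 to 2.17 in the 3 controls with a count (exact permutation p 0.371, and 0.83 with control replicate 1). That of mmu-miR-34c-5p to mmu-miR-34a-5p was 30.1 to 204 in EtOH libraries and 37.6 to 140.2 in controls (exact permutation p 0.857). Against mmu-miR-449a-5p, in libraries with a count, mmu-miR-34c-5p was at 14.7 to 17.9 in EtOH libraries and 16.3 to 25.6 in controls (exact permutation p 0.2, and 0.486 with the libraries at 0), and mmu-miR-34a-5p at 0.156 to 0.594 in EtOH libraries and 0.116 to 0.604 in controls (exact permutation p 0.8 with or without the libraries at 0).

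**Figure D4:**
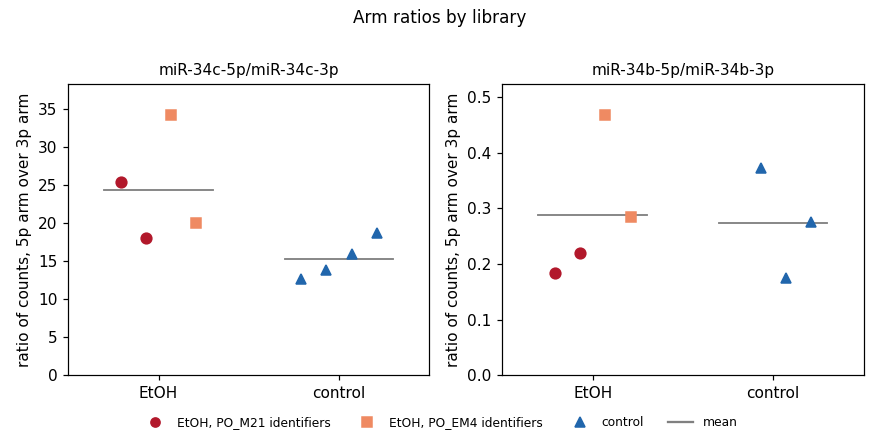
Ratio of 5p to 3p counts (y axis, from 0) of miR-34c (left) and miR-34b (right) by library, EtOH libraries left of controls. Points are libraries, shapes mark identifier forms and lines are means; control replicate 1 has no miR-34b ratio because the 3p arm was listed at 0, and for miR-34c the EtOH libraries reach from 18.0 to 34.2 and the controls from 12.7 to 18.7.

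Pooled over the groups, the 5p arms of miR-34b and miR-34c varied together, which the controls alone did not show. In EtOH libraries both shares were higher in the PO_EM4 than in the PO_M21 libraries. Among controls, replicate 2 had the highest share of mmu-miR-34b-5p (0.469%) and the lowest of mmu-miR-34c-5p (2.38%). As deviations from the group means of log2 share of miRNA counts, Pearson's r was 0.78 between mmu-miR-34b-5p and mmu-miR-34c-5p over 8 libraries, and 0.82 between mmu-miR-34c-5p and mmu-miR-449a-5p over 6. It was -0.70 between mmu-miR-34a-5p and mmu-miR-34c-5p and -0.73 between mmu-miR-34a-5p and mmu-miR-34c-3p, over 8 libraries, and 0.36 between the arms of miR-34c. These values describe the libraries and carry no p, and the rows of a library share its depth and its total of miRNA counts.

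Among 111 abundant miRNA rows outside the family, those whose deviations were most like each member's differed between members. They were mmu-miR-107-3p for mmu-miR-34a-5p (r 0.997), mmu-miR-19a-3p for mmu-miR-34b-5p (0.926), mmu-miR-126a-3p for mmu-miR-34b-3p (0.842, 7 libraries), mmu-miR-18a-5p for mmu-miR-34c-5p (0.852) and for mmu-miR-449a-5p (0.963, 6 libraries), and mmu-miR-340-5p for mmu-miR-34c-3p (0.904). Here too the rows of a library share its depth and total, and the best of 111 rows is high by choice.

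The remaining family rows were near the floor. Hairpin rows, which count reads on the precursor, were 6 in number with at most 19 counts in any library and 192 counts in all, and 10 further rows of the miRNA class held at most 6 counts in any library and 49 in all, against 290090 counts for the 6 members. These included mmu-miR-449c-5p, which carries the same 5p seed and had 1 count in all 8 libraries together.

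Exon fragments of pathway genes gave little evidence to set beside the family. The list held 41 genes: 25 textbook targets, 10 of miRNA processing and Argonaute loading, 4 activators and the host or neighbouring genes Btg4 and Cdc20b. Of its 531 exon rows, 15, from 11 genes, had enough counts to test. The 6 rows of Btg4 and Cdc20b did not. None of the 15 rows passed the threshold in edgeR, where 0.0217% of exon rows were called, and 4 were higher at an unadjusted p under 0.05, beside 36.8% of all 4600 exon rows tested. DESeq2 called 2 of the 15 higher, beside 27.6% of exon rows, and limma voom 1, beside 8.5%. The median log2 fold change of the 15 rows was 0.19, and that of all exon rows tested was 0.70.

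The 4 rows with the lowest p were 2 exons of Ccnd1, the cyclin D1 gene, and 1 each of Ago1, an Argonaute, and Notch1, a receptor. The first Ccnd1 row had 105, 150, 90 and 212 counts in EtOH replicates 1 to 4 and 20, 35, 29 and 45 counts in control replicates 1 to 4 (log2 fold change 1.72, SE 0.49, edgeR adjusted p 0.0552, DESeq2 adjusted p 0.00321, limma voom adjusted p 0.0417). The other Ccnd1 row was at 2.49 (edgeR adjusted p 0.0637, DESeq2 adjusted p 0.00446, limma voom adjusted p 0.166), the Ago1 row at 1.25 (edgeR adjusted p 0.137) and the Notch1 row at 1.56 (edgeR adjusted p 0.159). The most counted row of the list, an exon of Ago2, the slicing Argonaute, was at -0.09 (SE 0.42, edgeR adjusted p 0.92). Summed CPM of epididymal genes was higher in every EtOH library than in any control, and its part in these exon values was not tested.

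Markers of other cell types were counted because miR-34 and miR-449 are abundant in multiciliated cells. Of 9 multiciliated cell genes 8 were detected, with a summed 7.89 to 21.2 CPM in EtOH libraries and 9.02 to 12 CPM in controls, and Deup1, a centriole gene of these cells, was at 0 in all 8 libraries. Mcidas, Gmnc and Cdc20b had at most 3 counts in any library, whereas Rfx2 had 13 to 50. The highest sum, in EtOH replicate 2, included 28 counts of Ccno. The 6 leukocyte genes summed to 7.35 to 35.3 CPM in EtOH libraries and 8.49 to 20.2 CPM in controls. Epithelial miRNAs (3 of 4 detected) summed to 1077 to 2889 CPM in EtOH libraries and 1153 to 3886 CPM in controls, muscle miRNAs (4 of 4) to 1714 to 3981 CPM in EtOH libraries and 1966 to 36635 CPM in controls, and blood miRNAs (3 of 3) to 36.6 to 71.7 CPM in EtOH libraries and 63.3 to 674 CPM in controls. The muscle miRNAs peaked in control replicate 2 and the blood miRNAs in control replicate 4, and their part in the shares of miRNA counts was not tested.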

How the data were processed

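The deposited table holds counts per annotated feature, whole numbers that the authors did not normalize, for 8 small RNA libraries, 4 EtOH and 4 control. Per the labels' protocols, extraction used guanidinium thiocyanate with the reducing agent TCEP, and only read 1 was kept. The submitters' processing notes name cutadapt, a tool that trims adapters. For the aligner, genome build, annotation and handling of multiply matching reads: not given in the sources used here. Groups came from the treatment label.

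In edgeR 4.0.16, features that passed filterByExpr (at least 10 counts, total of at least 15) were scaled by TMM and tested by its quasi-likelihood F test in R 4.3.3 over the whole table, and again within miRNA rows, with Benjamini-Hochberg adjustment and a threshold of 0.05. DESeq2 1.42.0 and limma 3.58.1 were alternatives. Shares and log2 ratios (0.5 added to each count) were compared by two-sided exact permutation over libraries (scipy 1.17.1). An isolated zero is a 0 where other libraries predict 50 or more counts. Likeness used mature miRNA rows with a mean count of at least 50 and no library at 0. All 6 members are named; exon rows named are the 4 with the lowest p, and the Ago2 exon was added for its counts. The steps were tested on simulated data. The members and lists were chosen with earlier results of these data known, and leaving out libraries at 0, and taking either identifier form alone for ratios and shares, were added after seeing the data.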

Additional observations from a re-analysis of the deposited data

Results flagged for a closer look

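mmu-miR-34a-5p stood at 14.4 CPM in EtOH replicate 4, against 44.5 to 50.6 CPM in the other 3 EtOH libraries. The gap to the nearest library was 0.831 of the group's range, just past Dixon's critical value for 4 samples. Chance flags about 1 in 20 groups, and this was the single flag among 28 groups of values looked at.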

How the results depend on the processing

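No paired analysis was possible because the replicate numbers follow accession order and pair nothing. The whole-table count of called features was 19, and 9 with median-of-ratios size factors, 818 with library size alone, 1 with piRNA cluster totals, 1747 with DESeq2, 655 with limma voom, 1642 with no filter, 11 with a mean count of at least 10, 633 without features with isolated zeros, 2572 with PO_M21 libraries alone and 3 without the libraries at 0 for mmu-miR-449a-5p. Leaving out 1 library gave 3 (without EtOH replicate 4) to 2332 (without EtOH replicate 3). Within miRNAs the count was 1, and 7 with DESeq2, 4 with no filter, 2 without isolated zeros and 0 with PO_EM4 alone (edgeR, 20 rows at an unadjusted p under 0.05). The median log2 fold change of all features was -0.09, and 0.14 with library size alone. mmu-miR-34c-3p was lower in each whole-table alternative run, with edgeR, limma voom or DESeq2 adjusted p from 2.68e-05 (DESeq2) to 0.413 (no filter). The causes of these changes were not tested.

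In the whole table, the log2 fold change of mmu-miR-34b-3p was 2.12 with limma voom, and that of mmu-miR-449a-5p 0.08 without control replicate 1 and 0.02 without EtOH replicate 4, within a range from -1.09 to 0.08 over libraries left out. Within miRNAs, mmu-miR-449a-5p was at -0.47 with limma voom, mmu-miR-34a-5p at -0.01 without control replicate 1, -0.12 without EtOH replicate 2 (-0.12 to 0.49 over libraries left out) and -0.47 with PO_EM4 alone, and mmu-miR-34b-5p at -0.08 without EtOH replicate 3 (-0.08 to 0.37 over libraries left out) and -0.45 with PO_M21 alone. None of these passed a threshold.

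As shares of all counts rather than of miRNA counts, the differences turned to -0.00478 percentage points for mmu-miR-34a-5p, -0.0421 for mmu-miR-34b-5p, -0.0911 for mmu-miR-34b-3p, -0.224 for mmu-miR-34c-5p and -0.00242 for mmu-miR-449a-5p. Leaving out 1 library, share differences ran from -0.00199 to 0.0196 for mmu-miR-34a-5p, -0.0169 to 0.162 for mmu-miR-34b-5p, 0.162 to 0.818 for mmu-miR-34b-3p, 0.612 to 1.34 for mmu-miR-34c-5p, -0.0448 to -0.0112 for mmu-miR-34c-3p and 0.0192 to 0.121 for mmu-miR-449a-5p. With PO_M21 alone the share of mmu-miR-34b-5p differed by -0.106, and with PO_EM4 alone that of mmu-miR-34a-5p by -0.00852.

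The log2 ratio difference ran, leaving out 1 library, from 0.47 to 0.78 for the arms of miR-34c, -5.08 to 0.05 for the arms of miR-34b, -4.77 to 0.27 for mmu-miR-34c-5p over mmu-miR-34b-3p, -0.37 to 0.55 for mmu-miR-34c-5p over mmu-miR-34a-5p, -3.26 to 2.33 for mmu-miR-34c-5p over mmu-miR-449a-5p and -2.89 to 2.55 for mmu-miR-34a-5p over mmu-miR-449a-5p. Without libraries at 0 the values were 0.05, 0.27 and 0.26 for the arms of miR-34b, for mmu-miR-34c-5p over mmu-miR-34b-3p and for mmu-miR-34a-5p over mmu-miR-449a-5p. With PO_M21 alone mmu-miR-34c-5p over mmu-miR-34a-5p was at -0.79, and with PO_EM4 alone the ratios to mmu-miR-449a-5p were at 2.24 for mmu-miR-34c-5p and 1.26 for mmu-miR-34a-5p. The ranges of 4 of the 6 ratios rest on libraries listed at 0. Apart from these zeros the lowest count of a member was 83, and the part of depth was not tested.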
